A study of Mus musculus with 4 samples.

Results

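Promoter regions of noncoding genes were examined in ATAC-seq data, which mark open chromatin by where a transposase can cut it. They were chosen by position alone. Peaks of the 4 deposited lists were joined into 1 union region wherever they shared 1 bp or more, and a region was kept if it lay within 1000 bp of a transcript start of any gene but farther than that from every start of a protein-coding gene (GENCODE release M21 on mm10). The rule kept 1569 of 40910 union regions. They lay at the starts of 1435 genes, of which 1315 had 1 region and 110 had 2. The other regions were 16595 coding promoters and 22746 regions away from promoters.

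The cells were ES-E14TG2a, a male mouse embryonic stem cell line (mESCs), wild type at both time points, differentiated as embryoid bodies in serum-free medium through cardiogenic mesoderm toward endothelial cells (ECs). Day 2 (d2) cells had not yet seen the inducing factors, and day 4 (d4) cells had been treated with VEGF, BMP4 and Activin A. The 2 libraries of each day came from differentiation experiments run separately on the 1 line. Whether a d2 and a d4 library came from the same experiment is not stated. The cultures were not sorted, so a weaker peak can mean fewer cells with the open site or less opening per cell, which cannot be told apart in bulk data.

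Noncoding genes are transcribed into RNA that is not translated. Long noncoding RNAs (lncRNAs) are mostly made by RNA polymerase II from promoters much like those of coding genes, and some, such as those of the X-inactivation centre and of imprinted clusters, act on neighbouring genes in cis. The annotated start of a microRNA (miRNA) gene is the end of its hairpin, and that of a processed pseudogene the end of a retrocopied sequence, so neither needs to be a site where transcription begins.

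The peak lists held 21299 to 26865 peaks per library. The genome-wide background coverage solved from them was 0.483 to 0.568 (pileup per base) at d2 and 0.744 to 0.755 at d4, so the 2 libraries with more background coverage, those of d4, held fewer peaks. The median summit pileup of the noncoding-only promoters called in a library was 15 to 17, and the smallest pileup of any peak was 6 or 7, so the weakest peaks stand on little signal, and the absence of one in 1 library does not show closed chromatin. As a check of the labelled cells, 4 and 5 of 5 pluripotency genes (Pou5f1, Nanog, Zfp42, Sox2 and Esrrb) had a promoter peak in the d2 libraries, against 1 and 2 at d4. Of 5 endothelial genes (Kdr, Cdh5, Pecam1, Tie1 and Etv2), 2 had one in each d2 library and 4 and 2 in the d4 libraries. Tie1 had none in any library. Of 4 mesoderm genes (T, Mesp1, Pdgfra and Gata4), 1 and 4 had one at d2 and 2 and 3 at d4. Of the genes checked for other cell types, the neural gene Pax6 and the endoderm gene Sox17 had a peak in all 4 libraries, the endoderm gene Foxa2 and the blood gene Ptprc at d2 only, and the neural gene Sox1 and the blood gene Gata1 in none.

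The sequences below, each of 200 bases from 100 before the summit base to 99 after it, show what the regions discussed here look like. Regions are called gained where both d4 libraries and no d2 library had a peak, lost where both d2 and no d4 library did, and shared where all 4 did. Sequences are from GRCm38.p6, the build of mm10, written 5′ to 3′ on the strand of the noncoding gene, and capitals mark letters that match 1 of the 15 motifs spelled out further on. The first 3 are gained regions with high enrichment and matches to the GATA or TEAD letters: Gm16260 (chr14:100220527-100220726, plus strand), C130080G10Rik (chr2:114057529-114057728, plus strand) and BB365896 (chr6:58965505-58965704, plus strand).
Gm16260: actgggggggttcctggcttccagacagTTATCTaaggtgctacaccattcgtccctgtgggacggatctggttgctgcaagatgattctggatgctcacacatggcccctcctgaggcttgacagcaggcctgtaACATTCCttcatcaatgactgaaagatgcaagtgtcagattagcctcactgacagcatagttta
C130080G10Rik: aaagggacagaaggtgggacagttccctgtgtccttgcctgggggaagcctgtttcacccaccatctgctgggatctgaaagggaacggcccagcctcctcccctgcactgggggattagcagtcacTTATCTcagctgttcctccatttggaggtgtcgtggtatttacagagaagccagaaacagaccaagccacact
BB365896: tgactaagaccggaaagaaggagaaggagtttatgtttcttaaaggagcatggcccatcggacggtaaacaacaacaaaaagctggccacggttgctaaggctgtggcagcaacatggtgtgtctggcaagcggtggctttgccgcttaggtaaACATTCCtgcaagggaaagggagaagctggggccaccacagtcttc
The next 3 come from the X-inactivation centre and show 2 gained starts and 1 lost start. All 3 are CpG-rich as defined further on: Jpx (chrX:103493558-103493757, plus strand), Ftx (chrX:103622393-103622592, minus strand) and Tsix (chrX:103447611-103447810, plus strand).
Jpx: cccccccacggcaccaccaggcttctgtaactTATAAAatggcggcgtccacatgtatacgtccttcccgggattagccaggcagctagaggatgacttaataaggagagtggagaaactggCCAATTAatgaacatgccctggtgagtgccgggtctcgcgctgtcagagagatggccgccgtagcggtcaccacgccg
Ftx: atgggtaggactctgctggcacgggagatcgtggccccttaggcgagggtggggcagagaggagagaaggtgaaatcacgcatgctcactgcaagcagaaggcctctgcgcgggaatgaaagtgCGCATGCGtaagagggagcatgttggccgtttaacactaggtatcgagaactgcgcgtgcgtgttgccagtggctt
Tsix: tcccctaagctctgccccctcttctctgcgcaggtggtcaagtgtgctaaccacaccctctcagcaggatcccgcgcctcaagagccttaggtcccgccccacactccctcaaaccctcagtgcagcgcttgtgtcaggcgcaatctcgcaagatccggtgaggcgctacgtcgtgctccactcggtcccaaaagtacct
Pvt1 is shown for a lost and a gained start of 1 gene (chr15:62037866-62038065 and chr15:62098846-62099045, both plus strand), and Platr11 for a lost region 1 bp from a start (chr9:118406110-118406309, minus strand).
Pvt1, lost: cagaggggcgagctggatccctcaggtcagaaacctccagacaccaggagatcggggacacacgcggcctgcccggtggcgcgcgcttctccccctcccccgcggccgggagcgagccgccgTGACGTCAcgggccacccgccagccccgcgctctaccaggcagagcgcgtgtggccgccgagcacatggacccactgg
Pvt1, gained: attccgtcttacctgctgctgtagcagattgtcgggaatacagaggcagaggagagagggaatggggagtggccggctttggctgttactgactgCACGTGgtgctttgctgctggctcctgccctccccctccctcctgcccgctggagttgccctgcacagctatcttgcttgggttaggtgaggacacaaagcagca
Platr11, lost: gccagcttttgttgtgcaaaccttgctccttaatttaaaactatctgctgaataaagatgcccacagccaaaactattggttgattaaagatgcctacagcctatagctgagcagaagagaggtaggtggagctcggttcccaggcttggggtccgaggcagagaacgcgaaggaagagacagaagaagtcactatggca
Snhg8 is a shared CpG-rich start (chr3:123508359-123508558, minus strand), and Gm31946 is the shared region with the largest difference between d2 and d4 (chr13:78427778-78427977, plus strand).
Snhg8: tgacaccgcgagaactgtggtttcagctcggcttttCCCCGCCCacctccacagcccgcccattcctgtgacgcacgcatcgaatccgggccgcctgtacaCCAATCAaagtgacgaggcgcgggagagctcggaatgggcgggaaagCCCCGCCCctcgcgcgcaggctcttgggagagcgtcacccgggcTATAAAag
Gm31946: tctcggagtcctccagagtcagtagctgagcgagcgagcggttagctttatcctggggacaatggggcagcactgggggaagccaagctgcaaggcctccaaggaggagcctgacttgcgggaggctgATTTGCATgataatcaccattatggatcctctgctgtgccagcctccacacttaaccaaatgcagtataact

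More noncoding-only promoters were called only at d2 than only at d4. Of the 1569 regions, 162 were gained (10.3%, 95% Wilson interval 8.92 to 11.9%), 275 lost (17.5%, 15.7 to 19.5%) and 352 shared (22.4%, 20.4 to 24.6%). Over all union regions, 9.93% were gained, 13.8% lost and 28.1% shared. The gained share was thus near the background, the lost share above it and the shared one below it. Another 137 noncoding-only regions were called in 3 of 4 libraries, 53 in 1 d2 and 1 d4 library, 357 in 1 d2 library and 233 in 1 d4 library. The intervals cover counting error only, and no test between sets of regions was made. The order of lost and gained turned when the top 15000 peaks of each library were used, with 119 gained and 107 lost regions. Requiring only 1 d4 library raised the gained count to 256 and 301 (without d4 replicates 1 and 2), and requiring only 1 d2 library raised the lost count to 421 and 495 (without d2 replicates 1 and 2).

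Per library, 981 and 912 noncoding-only promoters were called at d2 and 772 and 724 at d4. Both d2 values were above both d4 values. The d2 mean was 947 ± 48.8 (SD, n = 2), the d4 mean was 748 ± 33.9 (SD, n = 2), and an exact two-sided permutation test over the 4 libraries gave p = 0.333, the smallest value that this design allows. As a share of all regions called in the library, they made up 3.78% and 3.77% at d2 and 3.52% and 3.49% at d4 (exact permutation p = 0.333), so the d4 shares were lower by 0.273 percentage points. When every library was limited to its top 15000 peaks, the d4 minus d2 difference in mean count was only -6 regions, and with a −log10 q of at least 10 it was -87.5 regions. The lower number of peaks and the higher background coverage at d4 move with this difference, and their part in it was not tested.

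Noncoding-only promoters lay between coding promoters and regions away from promoters in how often they were shared. The share called in all 4 libraries was 57.3% (56.6 to 58.1%) at coding promoters, 22.4% at noncoding-only promoters and 7.17% (6.84 to 7.51%) away from promoters. Gained regions made up 2.02%, 10.3% and 15.7% of the same sets, in that order, and lost regions 9.15%, 17.5% and 17%. The lost share of noncoding-only promoters thus lay close to that of regions away from promoters.

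**Figure D1:**
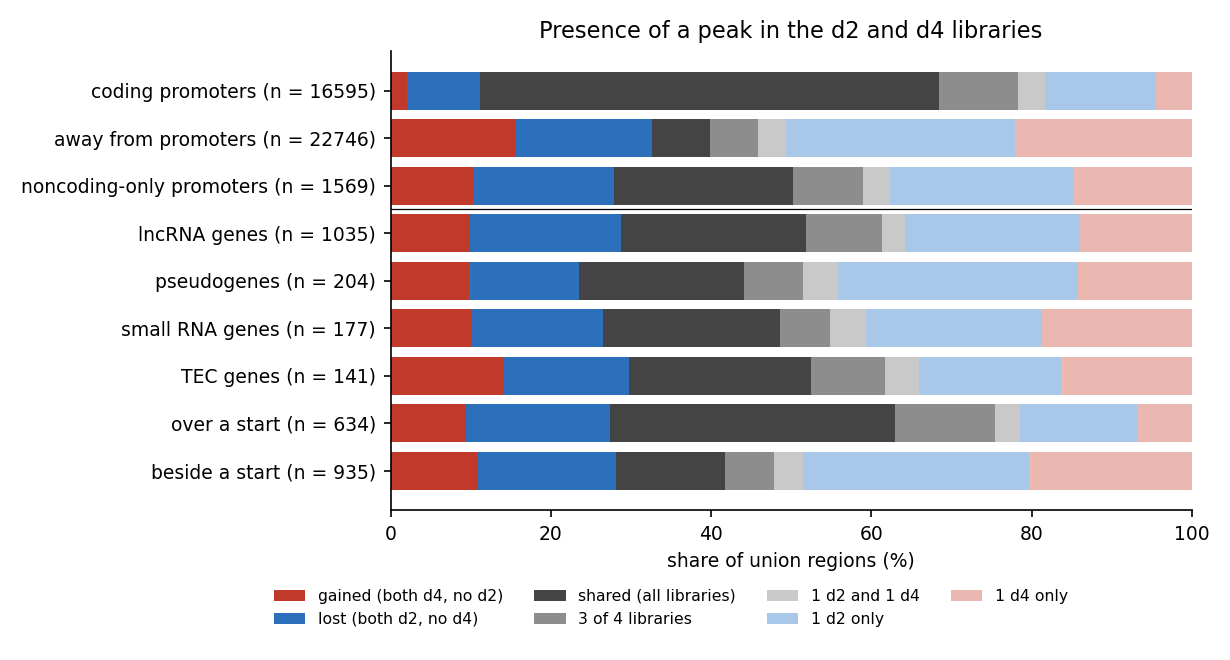
Stacked bars show the share of union regions (%) with each presence pattern over the d2 and d4 libraries, for coding promoters, regions away from promoters and noncoding-only promoters, and, below the line, for noncoding-only promoters by gene class and by position relative to the start. The dark shared part is 57.3% at coding promoters, 22.4% at noncoding-only promoters and 35.5% where a noncoding-only region covers a start.

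Presence was counted by gene class. lncRNA types gave 1035 of the regions (66.0%), pseudogenes 204, small RNA genes 177 and TEC genes, the GENCODE class of transcripts that await experimental testing, 141. The remaining 12 regions lay at immunoglobulin or T cell receptor gene segments, which the rule keeps because they are not of the protein_coding type. Gained regions made up 9.95% of the lncRNA regions (8.27 to 11.9%), 9.80% of the pseudogene regions (6.44 to 14.7%), 10.2% of the small RNA regions (6.53 to 15.5%) and 14.2% of the TEC regions (9.37 to 20.9%). Lost regions made up 18.8% (16.6 to 21.3%), 13.7% (9.67 to 19.1%), 16.4% (11.7 to 22.5%) and 15.6% (10.5 to 22.5%) of the same classes. For gained and for lost shares these intervals overlapped between every pair of these 4 classes, and the differences were not tested. Regions called in 1 d2 library only made up 21.8% of lncRNA (19.4 to 24.5%), 29.9% of pseudogene (24.0 to 36.5%), 22% of small RNA (16.6 to 28.7%) and 17.7% of TEC regions (12.3 to 24.9%). Of the 12 gene segment regions, 1 was gained, 1 lost, 0 shared, 6 called in 1 d2 library and 4 in 1 d4 library.

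Among single gene types, antisense genes, transcribed from the strand opposite another gene, had 51 of 235 regions lost (21.7%, 16.9 to 27.4%) and 24 gained. lincRNA genes, which lie between coding genes, had 111 of 621 lost (17.9%, 15.1 to 21.1%) and 65 gained. Processed transcripts had 32 of 159 lost and 50 shared (31.4%, 24.7 to 39.0%). miRNA genes had 18 of 74 lost (24.3%, 16.0 to 35.2%), 8 gained and 11 shared. Small nuclear RNA (snRNA) genes had 5 of 49 lost, 6 gained and 15 shared (30.6%, 19.5 to 44.5%). Processed pseudogenes, of which 139 had a region, showed 15 gained, 23 lost and 19 shared (13.7%, 8.93 to 20.4%). Reads that mapped to several places were discarded by the authors, so regions in near-identical gene copies, such as snRNA genes and pseudogenes, are uncertain.

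A region that covered the start was more often shared than one beside it. Of the noncoding-only promoters, 634 (40.4%) overlapped a transcript start, and this held for 45.9% of lncRNA regions, 33.3% of TEC regions, 30.9% of pseudogene regions and 26% of small RNA regions. Of the regions over a start, 35.5% (31.9 to 39.3%) were shared, against 13.6% (11.5 to 15.9%) of the 935 beside one. At coding promoters the same shares were 71.0% over a start and 17.4% beside one. Gained shares were 9.46% over and 10.9% beside a noncoding start, and lost shares 18% and 17.2%. Shared regions were also the wider ones, with a median of 504 bp against 297 bp for gained and 295 bp for lost regions. A region merged from more peaks is wider and covers a given base more readily. Being shared and covering a start are thus not independent, and the part of width was not tested.

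The median distance to the nearest coding start was 25.5 kb over all noncoding-only promoters. Gained regions lay farthest, at a median of 43.7 kb, lost ones at 27.3 kb and shared ones at 21.2 kb. Of all noncoding-only promoters, 23.7% (21.7 to 25.9%) lay within the body of a coding gene, against 44.7% of regions away from promoters. The lower share is in part set by the annotation, since 621 noncoding-only promoters were at lincRNA genes, which lie between coding genes. At the edge of the rule, 8 of 50 regions in the last 100 bp inside the limit from a noncoding start were gained, 14 lost and 6 shared. Of 74 regions in the first 100 bp outside it, 10 were gained, 13 lost and 7 shared. At the other limit, 18 regions were kept from the first 100 bp beyond it, with 0 gained, 1 lost and 2 shared. The 16 regions left out from the last 100 bp within it had 1 gained, 2 lost and 4 shared.

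The strongest gained regions lay at genes of several types, most of which have no known function. The 6 with the highest lower fold enrichment over their pair of d4 libraries are given here as fold enrichment over local background in d4 replicates 1 and 2. The region over the start of BB365896, an antisense gene, had 14.9 and 13.8, and that 855 bp from Gm16260, a processed pseudogene nearest to the coding gene Klf12, had 13.7 and 14.3. The region 471 bp from Gm27857, annotated as a miRNA gene, had 12.6 and 12.2. By the definition of gained, none of the 6 regions had a peak in either d2 library. C130080G10Rik, an antisense gene whose region lay 3755 bp from the start of Actc1, which encodes cardiac actin, had 13.9 and 11.7. Gm22083, an snRNA gene 3608 bp from Was, had 16.2 and 11.3, and Gm11386, a processed pseudogene, had 11.6 and 11.1. The median gained noncoding-only promoter had 7.53 and 7.67, so these 6 lay well above it.

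Gained noncoding-only promoters often held GATA letters at the summit, unlike lost and shared ones. The 15 motifs were searched on both strands in the 200-base window around the summit: the GATA motif (AGATAA), ETS (CCGGAAGT), AP-1 (TGANTCA), CRE (TGACGTCA), TEAD (GGAATGT), octamer (ATGCAAAT), NFY (CCAATNA), NRF1 (CGCATGCG), SP/KLF (GGGCGGGG), YY1 (AAGATGGC), E-box (CACGTG), CTCF (AGNGGGCGC), ZNF143 (TACAATTCC), the TATA box (TATAAA) and the B box of RNA polymerase III genes (GTTCGANTC). Matches of different motifs may share letters. The GATA letters, the core that GATA zinc-finger factors of mesoderm and blood bind, were in 56 of 162 gained windows (34.6%, 27.7 to 42.2%), 9 of 275 lost (3.27%, 1.73 to 6.10%) and 15 of 352 shared ones (4.26%, 2.60 to 6.91%), against 10.6% of all union regions. The gained share was 23.9% at coding promoters and 39.1% away from promoters, so it was not particular to noncoding genes. The TEAD letters, bound by the factors that take up Hippo pathway signals, were in 22 gained (13.6%, 9.14 to 19.7%), 6 lost (2.18%) and 7 shared windows (1.99%), against 3.74% of all union regions. Both were present in 11 gained windows, and 67 of the 162 held at least 1 of them. A match is a description of the letters and does not show binding.

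The GATA letters were not limited to 1 gene class or position. They were in 33 of 103 gained lncRNA regions (32.0%), 9 of 20 pseudogene regions (45.0%), 9 of 20 TEC regions (45.0%) and 5 of 18 small RNA regions (27.8%). Of the 60 gained regions over a start, 17 held them (28.3%), against 39 of 102 beside one (38.2%). Gm16260, whose window also held the TEAD letters, and C130080G10Rik were the 2 most enriched. Others were Gm49226 (11.6 and 9.16), an antisense start 24737 bp from App with GATA, TEAD and AP-1 letters, E330011O21Rik (8.13 and 11), a processed transcript start 6277 bp from Cxadr, and Gm20052 (7.76 and 8.26), a lincRNA start 68990 bp from Msx1. Mir450b (9.03 and 7.08), 778 bp from an X-linked miRNA hairpin, held them too.

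Base composition followed presence in the opposite order. A window was called CpG-rich at an observed over expected CpG ratio of at least 0.6 and a GC content of at least 50%. This held for 8 of 162 gained (4.94%, 2.52 to 9.44%), 54 of 275 lost (19.6%, 15.4 to 24.7%) and 194 of 352 shared noncoding-only promoters (55.1%, 49.9 to 60.2%), against 34.0% of all union regions. At shared coding promoters it was 82.8%, and at shared regions away from promoters 26.3%. Among shared noncoding-only promoters, 64.0% (57.5 to 70.0%) of windows over a start were CpG-rich and 39.4% (31.3 to 48.1%) of those beside one. The 8 CpG-rich gained windows included Jpx and Ftx, printed above, and only Gm20052 of them held the GATA letters.

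**Figure D2:**
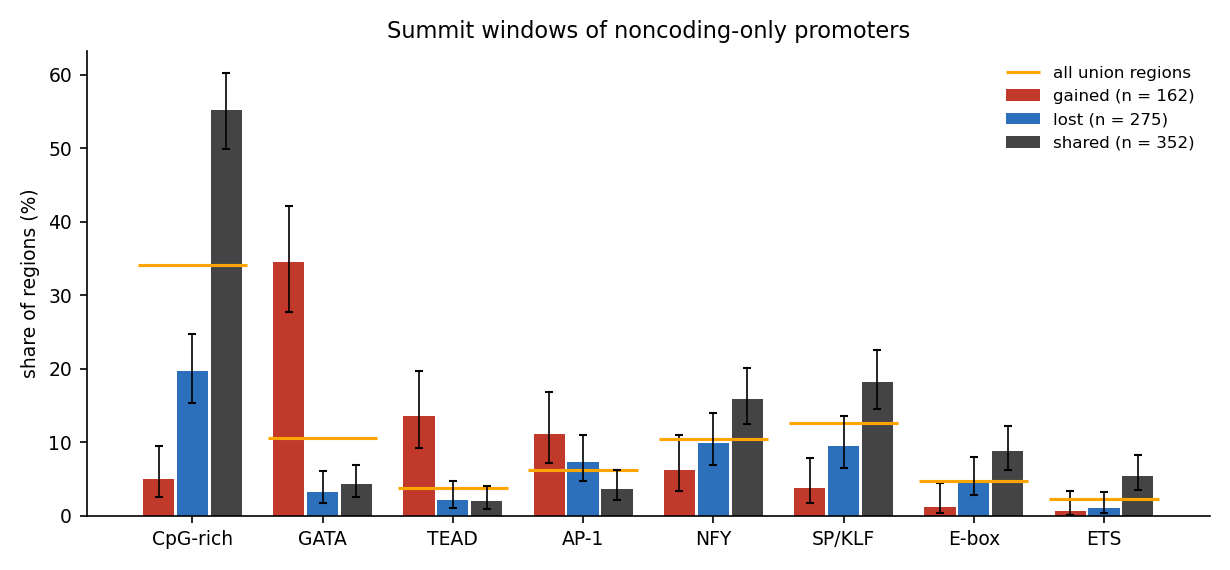
Bars show the share of summit windows (%) of gained, lost and shared noncoding-only promoters that were CpG-rich or held the letters of 7 of the 15 motifs, with 95% Wilson intervals, and the orange lines give the share of all union regions. The GATA bar of gained regions stands at 34.6% and the CpG-rich bar of shared regions at 55.1%, each above the line for all union regions.

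Some motifs of general promoter factors were most frequent at shared regions and others were not. The GC box bound by SP and KLF factors was in 18.2% of shared (14.5 to 22.5%), 9.45% of lost and 3.70% of gained windows. The CCAAT letters of NFY were in 15.9%, 9.82% and 6.17% of the same sets, and the E-box in 8.81%, 4.73% and 1.23%. Over all union regions, the shares were 12.7% for SP/KLF, 10.4% for NFY and 4.75% for the E-box. ETS sites spelled otherwise than the letters searched here, which contain a CpG, were not counted. The paper, with a different motif search, found ETS motifs enriched in regions opened at d4 near EC marker genes. The ETS letters searched here were in 5.40% of shared, 1.09% of lost and 0.617% of gained windows, against 2.28% of all union regions. The AP-1 letters went the other way, with 3.69% of shared, 7.27% of lost and 11.1% of gained windows. So did the TATA box, with 2.56% of shared, 2.91% of lost and 6.79% of gained windows, while NRF1 letters were in 1.14%, 0.727% and 1.23%. Over all union regions, AP-1 was at 6.16%, TATA at 3.38% and NRF1 at 0.958%. At coding promoters, SP/KLF letters were in 29.2% of shared and 4.18% of gained windows, and AP-1 letters in 2.14% and 8.66%. Away from promoters it was 12.6% and 1.63% for SP/KLF, and 6.63% and 11.7% for AP-1. The orders of SP/KLF and AP-1 were thus not particular to noncoding genes. The Snhg8 window printed above holds the SP/KLF, NFY and TATA letters.

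The strongest lost regions were over or near starts of little-studied lncRNA and TEC genes. Their fold enrichment is given for d2 replicates 1 and 2, and none had a peak at d4. It was 14.0 and 14.1 at a region 792 bp from 5430434F05Rik, a TEC gene, and 19288 bp from Tet3. Over the start of 4933439K11Rik it was 15.4 and 13.7. The region 541 bp from Gm45391, a lincRNA, had 14.3 and 13.2. That over the start of Wbscr25, an antisense gene, had 13.0 and 16.9. The regions over the starts of 1700030C10Rik and 1700125H03Rik had 12.8 and 12.8, and 12.6 and 15.1. The median lost noncoding-only promoter had 7.11 and 7.53.

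Strong shared regions lay over starts of lncRNA and pseudogenes. Given as fold enrichment in d2 replicates 1 and 2 and d4 replicates 1 and 2, Bambi-ps1, a pseudogene of the BMP and TGF-beta pseudoreceptor gene Bambi, had 18, 20.2, 18.2 and 17.7. The lincRNA with the highest lowest value, Gm5444, had 19.9, 17.7, 16.0 and 21.9, and the antisense gene Gm15287 had 15.4, 15.7, 13.4 and 16.4. None of these 3 showed a separation of d2 and d4 in fold enrichment, although the summit pileup of Gm5444, compared further on, was called higher at d4 (40 and 33 at d2, 57 and 77 at d4, log2 difference 0.86, limma adjusted p = 0.00310, range 6.14e-06 to 0.823 over the alternatives). Mir210, a miRNA gene induced in low oxygen, had 14.4, 15.3, 14.4 and 13.2, the highest lowest value of the miRNA type. Gm22973, an snRNA gene, had 13.7, 12.4, 12.5 and 14.3.

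Noncoding genes of 8 lists, chosen from textbook knowledge, were looked up by name. Names absent from the GENCODE annotation could not have a region. Among all union regions, 9.93% were gained, 13.8% lost and 28.1% shared. Each list gave only 3 to 20 regions, and no list was tested against these shares. Of 20 imprinting and X-inactivation genes, 19 were in the annotation and 9 had a noncoding-only promoter region. They had 11 regions in all, of which 2 were gained, 3 lost and 4 shared. Tsix, the antisense transcript that restrains Xist in mESCs, had a lost region over the start of one of its transcripts, with a fold enrichment of 8.25 and 11.8 at d2. Jpx, which favours Xist expression, had a gained region over its start with 5.70 and 7.69 at d4. Ftx, another positive regulator of Xist, had a gained region with 7.98 and 9.65 at d4. So the d2 and d4 libraries each held peaks in this centre that the other lacked. Their summit pileups were low, at 14 and 19 for Tsix, 9 and 13 for Jpx and 13 and 16 for Ftx. The smallest pileup of any peak was 6 or 7, so a missing peak here does not show closed chromatin. A second Ftx region, over another of its starts, was shared at 5.74, 8.08, 8.55 and 8.32, and another was called in d2 replicate 1 only.

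At imprinted genes, Meg3 and Rian, maternally expressed RNAs of 1 cluster, each had a lost region, 690 and 469 bp from a start. Meg3 had 6.99 and 7.31 and Rian 7.29 and 6.85 at d2. Kcnq1ot1, the paternally expressed RNA that silences its neighbours, was shared at 7.67, 12.6, 9.72 and 10.1, and Nespas, antisense to the Gnas cluster, at 5.89, 8.73, 8.77 and 8.58. The list also held Lockd, next to the cell-cycle inhibitor gene Cdkn1b, which was shared at 9.60, 9.59, 12.0 and 14.5. Airn had a peak in d4 replicate 1 only. Of these antisense imprinted RNAs, Kcnq1ot1 and Nespas thus had a peak in all libraries and Airn in 1.

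Of 54 pluripotency lncRNA and miRNA genes, 49 were in the annotation and 9 had a region, with 1 lost, 0 gained and 0 shared. The lost one was at Platr11, a pluripotency-associated transcript 71757 bp from Eomes, at 9.84 and 12.5. Regions 93 bp from the hairpin start of Mir302b and 785 bp from that of Mir290a, of the miRNA clusters typical of mESCs, were called in 3 of 4 libraries. Mir302b had 8.04 and 13.3 at d2 and 8.26 in d4 replicate 1, and Mir290a had 6.96 and 6.24 at d2 and 8.25 in d4 replicate 1. Neither was called in d4 replicate 2. The remaining regions, apart from Platr22 in 3 libraries, were each called in 1 library.

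Of 74 noncoding-only promoters at miRNA genes, at 70 genes, 46 genes were found in the RefSeq table of GRCm38.p6. Mature sequences of the miR-302 and miR-290 clusters are printed here, including cluster members without a region of their own, because they share a seed (bases 2 to 8, in capitals).
miR-302b-3p: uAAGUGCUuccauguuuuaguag
miR-302d-3p: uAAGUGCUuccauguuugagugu
miR-291a-3p: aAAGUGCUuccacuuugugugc
miR-294-3p: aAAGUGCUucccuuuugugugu
miR-295-3p: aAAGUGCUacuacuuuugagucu
miR-290a-3p: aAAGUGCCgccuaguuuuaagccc
The first 5 have the same seed, and miR-290a-3p has another at its last base. Among miRNA genes with a region, the seed GUCAGGC was the most repeated, at 4 genes of the Mir344 group, whose 5p arms are shown for that reason. Mir344 and Mir344-2 carry the same mature RNA.
miR-344-5p: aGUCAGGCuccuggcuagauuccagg
miR-344b-5p: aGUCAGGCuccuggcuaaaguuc
miR-344c-5p: aGUCAGGCugcuggcuagaguac
The regions covered the hairpin starts of these 4 genes. Mir344 was lost at 10.8 and 6.74, Mir344b was lost at 9.56 and 5.39, and Mir344-2 was shared at 7.65, 6.74, 10.7 and 9.03. Mir344c had a peak in 1 d4 library only, so genes with 1 seed had different presence patterns.

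Mesoderm and cardiac genes gave 6 regions. Of 34 listed genes, 28 were in the annotation and 5 had a region. Of their regions, 3 were lost (at Hand2os1 and Pantr2), 1 was shared and 0 were gained. With 6 regions and 9.93% gained over all union regions, 0 gained regions say little. Hand2os1, antisense to the heart transcription factor gene Hand2, had 2 lost regions, at 9.28 and 7.56 and at 5.12 and 5.69. The second lay 1073 bp from a Hand2 start, just outside the limit for coding promoters. Pantr2 was lost at 8.38 and 6.82. It was in this list although it lies beside Pou3f3, a neural transcription factor gene, so its loss does not stand for mesoderm genes. Of 48 endothelial and vascular genes, 45 were in the annotation and 3 had a region. Of these, 2 were shared (Mir132 and Mir210), with 0 gained and 0 lost. Of 19 Hox cluster genes, 17 were in the annotation. Hoxb3os was lost at 5.15 and 6.96, and Haglr and Hoxd3os1 each had a peak in 1 library.

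Of 42 listed host genes of small RNAs, 28 were in the annotation and 16 had a region. Of their 20 regions, 9 were shared, 3 lost and 0 gained. The other 8 were called in 3 libraries (2 regions), in 1 d2 and 1 d4 library (1), in 1 d2 library (3) or in 1 d4 library (2). For comparison, shared regions made up 22.4% of all noncoding-only promoters, 35.5% of those over a start and 28.1% of all union regions. Snhg genes carry small nucleolar RNAs, which guide RNA modification, in their introns. Snhg15 had 13.7, 10.6, 13.0 and 14.3, Snhg6 had 11.2, 15.8, 16.6 and 11.2, and Mir17hg, host of the miR-17 cluster, had 8.58, 6.70, 7.16 and 7.30. These 3 showed no separation of d2 and d4. The 3 lost regions were at hosts of miRNAs: Mir670hg (7.57 and 8.66), Mir124-2hg (5.38 and 5.37) and Mir9-3hg (5.14 and 9.09), the last 2 of which host neural miRNAs. Each of these 3 genes also had another region, that of Mir124-2hg shared, that of Mir670hg called in 3 libraries and those of Mir9-3hg each in 1 d2 library.

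Among 24 RNA polymerase III and small nuclear RNA genes, 22 were in the annotation and 9 had a region. Of their 12 regions, 3 were shared, 1 gained and 0 lost. Rn7s2, which encodes the RNA of the signal recognition particle, was shared at 9.27, 12.0, 10.2 and 12.4, and Rnu2-10, a U2 RNA gene, at 13.3, 9.79, 9.40 and 10.7. Rny3, which encodes a Y RNA, was gained at 5.78 and 6.32 with low summit pileups of 10 and 11, while Rny1 nearby was called in 3 libraries. Terc, the RNA template of telomerase, had a peak in 1 d2 and 1 d4 library.

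Of 21 abundant and nuclear lncRNA genes, 17 were in the annotation and 10 had a region. They had 17 regions in all, 2 gained, 3 lost and 5 shared. Malat1 (8.39, 12.0, 7.01 and 9.61), Dancr (10.7, 15.0, 14.8 and 15.3), Crnde and Firre were shared. Pvt1, a lncRNA next to Myc, had 5 regions, the most of any gene. The region over its first start was lost, at 7.68 and 11 in the d2 libraries. A region over an internal start was gained, at 6.86 and 6.00 in the d4 libraries, and another, 682 bp from a further start, was gained at 4.85 and 6.95. The summit pileups of these regions were low, in this order 13 and 20, 14 and 11, and 9 and 15. The lost start held a CRE match and the gained one an E-box, as printed above. Only 5 genes in all had both a gained and a lost region. Rmst, a neural lncRNA, was lost at 8.73 and 8.01.

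**Figure D3:**
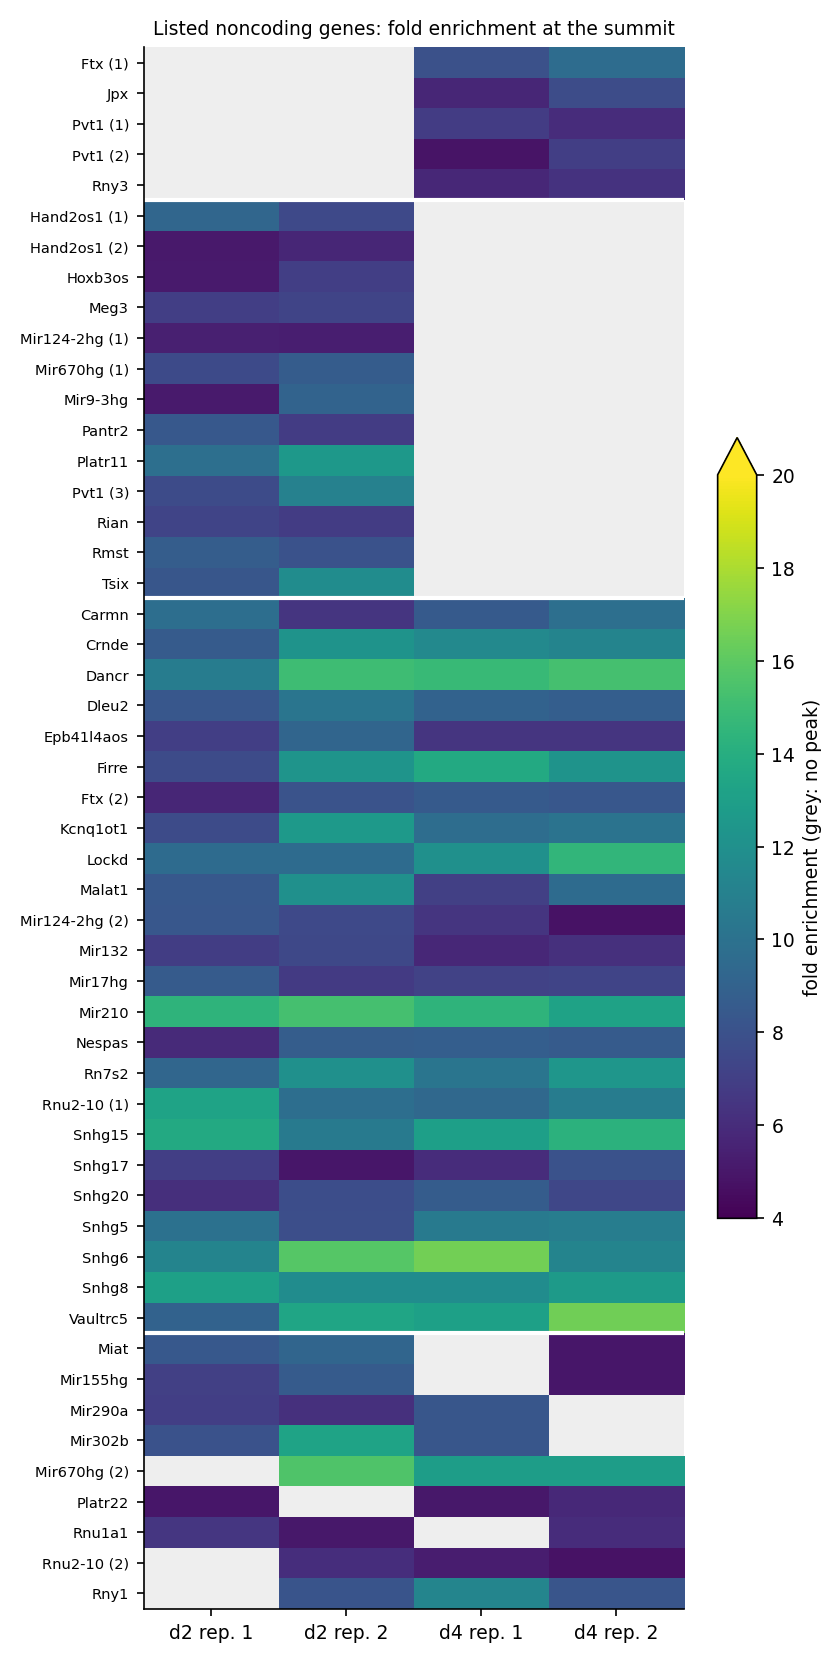
Colours show the fold enrichment over local background at the summit in each library (columns) for regions of the listed genes called in at least 3 libraries or in both of 1 time point (rows), with gained, lost, shared and 3-of-4 regions from top to bottom and grey for no peak. The gained block is short, with Ftx, Jpx, Rny3 and 2 regions of Pvt1, and the Snhg genes sit in the shared block.

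Within shared regions, the summit pileup was compared between d2 and d4 with limma over all 11494 union regions called in all 4 libraries, on log2 values of pileup per genome background centred on each library's median. At an adjusted p under 0.01, 21 of 352 noncoding-only promoters (5.97%) were higher and 6 (1.70%) lower at d4, against 2.81% and 1.13% of all shared regions. At coding promoters it was 2.54% and 0.925%, and away from promoters 3.68% and 2.21%. At an unadjusted p under 0.05, 64 were higher and 32 lower, against 1689 and 921 of all shared regions. The counts changed with the normalization. With the deposited fold enrichment 2 were higher and 1 lower, against 11 and 9 of all shared regions. With quantile normalization there were 0 and 1, against 8 and 10. With the genome background alone there were 0 and 17, against 7 and 333, where all regions had a median shift of -0.45. The median log2 difference was 0.0631 in noncoding-only promoters and 0.0555 in all shared regions. With 1 library left out, it was 0.00272 to 0.114 and 0.0329 to 0.0809 in the same sets.

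The lincRNA Gm31946, 228028 bp from Nr2f1, a nuclear receptor gene, was the only one of the 6 regions called lower at d4 that stayed past the threshold in every alternative tried. Its summit pileup was 46 and 58 in the d2 libraries and 11 and 17 in the d4 libraries. Both d4 values were below both d2 values. The log2 difference was -1.92 (SE 0.261, limma adjusted p = 1.58e-06, range 1.17e-10 to 0.00694 over the alternatives). Its window, printed above, holds the octamer letters bound by POU factors such as Oct4. These letters were in 2.56% of shared, 2.55% of lost and 0.617% of gained windows, against 1.89% of all union regions. Whether they have a part in the difference was not tested.

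The next regions that were lower at d4 stayed called with the genome background alone, and lost the call with quantile normalization and with the deposited fold enrichment. Mir128-2, a miRNA gene within the neural gene Arpp21, had pileups of 37 and 28 at d2 and 16 and 15 at d4, which did not overlap. Its log2 difference was -1.06 (SE 0.279, limma adjusted p = 0.00973, range 0.000565 to 0.142). Rncr4, a retinal noncoding RNA gene, had 37 and 43 at d2 and 17 and 18 at d4, also without overlap. Its log2 difference was -1.20 (SE 0.253, limma adjusted p = 0.00120, range 0.000234 to 0.525). The lincRNAs 4933436E23Rik (-1.23, SE 0.315, limma adjusted p = 0.00782, range 0.000358 to 0.174) and Gm42196 (-1.11, SE 0.281, limma adjusted p = 0.00711, range 0.00184 to 0.289) were the other 2 of the 5 with the largest differences. All 6 regions called lower had a negative difference under every alternative.

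The 5 largest differences in the other direction were at 2 pseudogene, 2 lincRNA and 1 TEC region. Gm13593, a processed pseudogene, had pileups of 11 and 10 at d2 and 32 and 36 at d4. Its log2 difference was 1.69 (SE 0.291, limma adjusted p = 9.85e-05, range 1.29e-07 to 0.0287). Gm44863, a TEC gene 17803 bp from Usp29, had 11 and 10 at d2 and 39 and 29 at d4. Its log2 difference was 1.67 (SE 0.293, limma adjusted p = 0.000110, range 1.75e-07 to 0.0328), and it was also called with the deposited fold enrichment, as Gm49326 was. In both regions each d4 library was above each d2 library.

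Atp10d, a phospholipid transporter gene annotated as a polymorphic pseudogene in the reference strain, had a region over an internal start with 8 and 8 at d2 and 24 and 19 at d4 (log2 difference 1.41, SE 0.323, limma adjusted p = 0.00278, range 0.000542 to 0.166). The lincRNAs Gm37494 (1.30, SE 0.252, limma adjusted p = 0.000419, range 2.15e-05 to 0.151) and 1700011C11Rik (1.25, SE 0.258, limma adjusted p = 0.000951, range 6.13e-06 to 0.183) completed the 5. Snhg8, with 51 and 45 at d2 and 76 and 79 at d4, had the smallest difference among the 21 (0.69, SE 0.170, limma adjusted p = 0.00570, range 9.77e-05 to 0.887). Of the 21 regions, 16 covered a start, 10 were at lncRNA genes, 5 at pseudogenes and 5 at TEC genes. A positive difference was kept by 20 of them under every alternative, the exception being Gm7461 with -0.16 at its lowest.

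**Figure D4:**
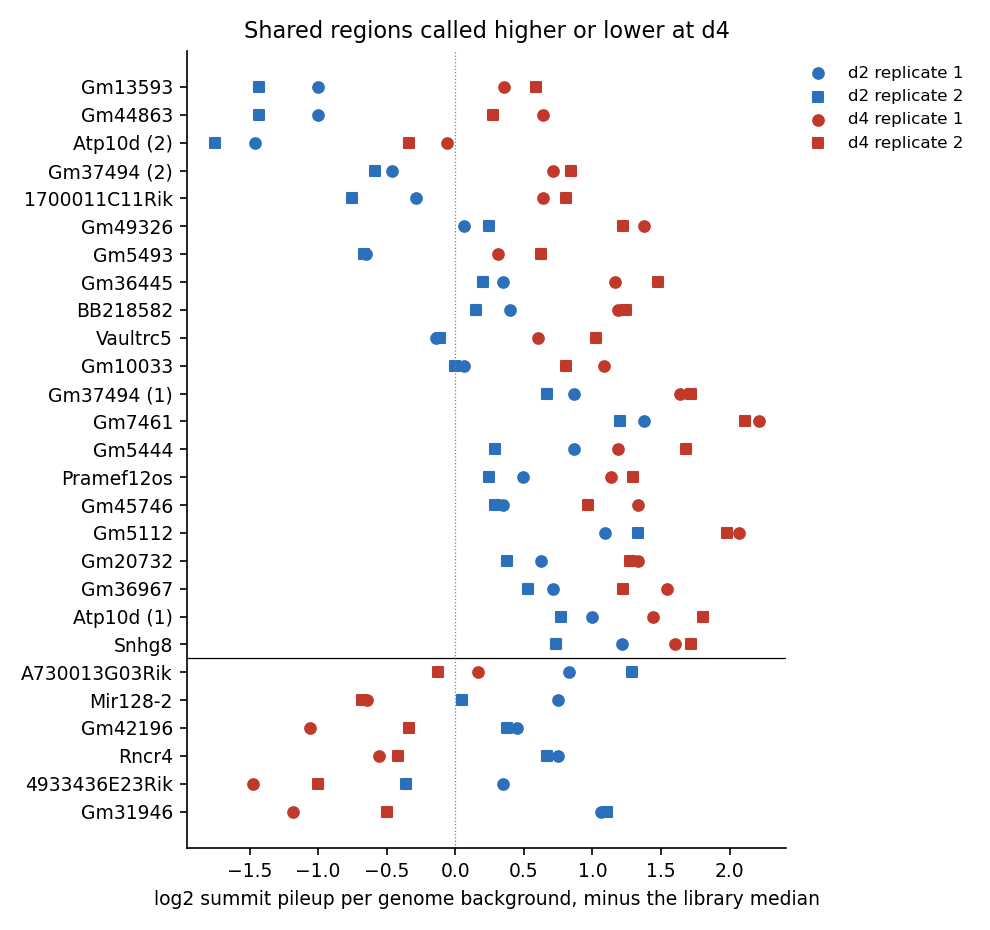
Points show the centred log2 summit pileup in each library (x axis, d2 blue, d4 red) for the 27 shared noncoding-only promoters called by limma (rows), with regions higher at d4 above the line and lower ones below it. In all 27 rows both d4 points lie on one side of both d2 points, and Gm31946 at the bottom has the widest gap of the lower ones.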

How the data were processed

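ATAC-seq peak lists of 4 libraries, 2 from d2 and 2 from d4, were analysed, with groups and replicate numbers from the labels. The paper's methods and the submitters' processing notes name FastQC for read quality, cutadapt for trimming, Bowtie2 for alignment to mm10 and MACS2 for peaks, which the authors called in each library on its own after discarding duplicates and reads of mitochondrial or ambiguous origin. The deposited fold enrichment is the authors' ratio of summit pileup to local background, and the deposited −log10 p-value and −log10 q-value come from the same caller. Read totals are not used here.

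From these values the whole pileup and the background at each summit were solved, to within 0.01 in −log10 p for 100% of peaks. Union regions, distances and motifs were computed with Python 3.11.15, pandas 2.3.3 and scipy 1.17.1. All 40910 regions lay within the chromosome lengths of GRCm38.p6. Shared regions were compared with limma 3.58.1 in R 4.3.3 (trended variances, Benjamini-Hochberg adjustment over 11494 regions), tested on simulated pileups first. A region was named after the noncoding gene with the nearest start. Regions named were the 6 gained and 6 lost with the highest lower fold enrichment, the 5 largest limma differences each way, the strongest shared region of gene types with at least 5 regions (the main ones are printed), and regions of 8 gene lists. Other regions and genes named, such as further GATA-bearing ones, were chosen after their values were seen. The set of regions, the lists and the motifs were chosen with earlier results of these data known. Alternatives covered overlap, q thresholds, peak number, distances, gene types, normalization and leaving out each library.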

Additional observations from a re-analysis of the deposited data

How the results depend on the processing

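A −log10 q of at least 10 gave 82 gained and 127 lost noncoding-only promoters, the top 15000 peaks of each library gave 107 lost ones, and lncRNA types alone gave 103 gained ones. Leaving out 1 library at a time gave 183 to 301 gained and 320 to 495 lost regions, since a single library then stood for a time point. Other settings for both counts stayed within 1.5 times the reported ones. The d4 minus d2 difference in regions called kept its direction in the 4 settings tried. For the summit pileup, the number higher and lower at d4 was 2 and 1 with the deposited fold enrichment, 0 and 17 with the genome background only, 0 and 1 with quantile normalization, and 38 and 14 at an adjusted p under 0.05. A mean summit pileup of at least 20 left 12 higher. Leaving out 1 library gave 4 to 37 higher and 2 to 6 lower, with the lone library of a time point assumed to vary like the others. Whether same-numbered libraries came from 1 differentiation experiment is not stated. The correlation of their deviations (0.0129, 2 pairs) cannot settle it. The fit with the replicate block called 27 higher and 8 lower, against 21 and 6 without it. Of the 12 named gained or lost regions, Gm11386 and 1700030C10Rik lost their class at a 50% reciprocal overlap. The cause of these shifts was not tested. Read depth is not known here, and the smallest summit pileups were 6 or 7.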
